A study of Mus musculus with 32 samples.

Results

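Binding of Ikaros was set beside acetylation of histone H3 at lysine 27 (H3K27ac) in B3 cells 2 h after Ikaros was induced. The 2 Ikaros and 2 H3K27ac peak lists of that time were merged into 37161 regions, joining peaks that shared at least 1 bp. Of these, 16215 fell into 3 classes. There were 618 Ikaros-only regions, with a peak of both Ikaros replicates and of neither H3K27ac replicate. There were 8221 H3K27ac-only regions, with the reverse pattern. The remaining 7376 regions had a peak in each of the 4 lists and are called shared regions. The other 20946 regions had an incomplete pattern and belong to no class. Among these, 14573 had H3K27ac in 1 replicate and no Ikaros, and 1955 had Ikaros in 1 replicate and no H3K27ac. The 24 lists of the whole series merge into 43270 regions.

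B3 is a mouse pre-B cell line derived from a lymphoma. All libraries came from B3 cells transduced by retrovirus with Ikaros fused to ERt2, and the fusion protein carries an HA tag. Transduced cells were sorted by GFP, and no cloning step is described. The ERt2 domain is used to hold a fusion in the cytoplasm until 4-hydroxytamoxifen (4-OHT) lets it enter the nucleus. The Ikaros lists of 0 h, before 4-OHT, nevertheless held 7822 and 9527 peaks. Cells at 2 h had received 500 nM 4-OHT, and cells at 0 h had received none. Anti-HA beads capture the introduced protein, together with any untagged family member bound to it. All 3 targets, with CHD4 as the last, were mapped at 0 h, 30 min, 1 h and 2 h with 2 replicates each. Nothing in the labels says whether replicates were separate cultures, so p-values measure the spread between these libraries only, which may be technical.

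Ikaros (IKZF1) is a zinc-finger transcription factor that is needed for lymphoid development and for the exit of pre-B cells from proliferation. It binds sites built around GGGAA-like words and works in part with NuRD, a complex that joins the remodeller CHD4 to histone deacetylases. H3K27ac is laid down by the acetyltransferases p300 and CBP at active promoters and enhancers, and sits on nucleosomes next to the DNA that transcription factors occupy.

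The sequences under the highest Ikaros summits of 2 classes are shown for the words they hold. They are 100 bases on the plus strand of GRCm38 (mm10), read from the RefSeq assembly and centred on the leading Ikaros summit. Capitals mark 2 core words and their complements, GGAA with TTCC on the other strand and GGGA with TCCC on the other strand. They may overlap. The first 3 are the Ikaros-only regions that rank highest by Ikaros fold. The last 3 are the shared regions that rank highest by the same measure. The windows at Ppp2r1a and Elp5 touch an untranslated region and are cut to 30 bases.
Snx29 intron, chr16:11687586-11687685: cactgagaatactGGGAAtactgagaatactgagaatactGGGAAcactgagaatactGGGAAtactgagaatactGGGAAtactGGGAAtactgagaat
Nr3c2 intron, chr8:77221233-77221332: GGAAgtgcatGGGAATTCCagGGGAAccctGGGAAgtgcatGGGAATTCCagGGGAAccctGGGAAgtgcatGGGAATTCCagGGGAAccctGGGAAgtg
Gm21969 intron near Tas1r2, chr4:139651083-139651182: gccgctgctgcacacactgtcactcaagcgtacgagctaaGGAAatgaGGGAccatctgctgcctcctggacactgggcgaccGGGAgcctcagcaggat
Ttc9c promoter, chr19:8819354-8819453: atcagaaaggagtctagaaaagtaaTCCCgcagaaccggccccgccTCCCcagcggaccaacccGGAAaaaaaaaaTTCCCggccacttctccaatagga
Ppp2r1a promoter, chr17:20945436-20945465: caccgccccgcccgaTCCCggaTTCCgcct
Elp5 promoter, chr11:69980539-69980568: tccaaTCCCgaagaaggttcgaacctGGGA

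The Snx29 window held 10 core words and the Nr3c2 window held 22, both in short repeated units. The Tas1r2 window held 3 and the Ttc9c window held 5. Fold enrichment, the signal at a summit over its local background as MACS2 gives it, was 11.4 and 15.4 in the 2 Ikaros replicates at the Snx29 site. At the Nr3c2 site it was 10.9 and 10.9. It was 13.3 and 18.6 at the Ttc9c promoter.

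Depth set what could be called. The Ikaros lists held 14225 and 14179 peaks, and the H3K27ac lists held 33664 and 25141. Background coverage recovered from fold and p was 2.85 and 2.13 fragments per base in the Ikaros libraries. In the H3K27ac libraries it was 3.96 and 4.02 before scaling to the input. At that background the weakest called summit held 11 and 9 fragments for Ikaros and 13 and 13 for H3K27ac. Peaks at that background were 5671 and 6724 of the Ikaros lists and 13859 and 10818 of the H3K27ac lists, and where the local background is higher more fragments are needed. A region absent from a list was thus not shown to be free of the protein or the mark. The lists held peaks down to a −log10 q of 1.30 to 1.35 and a fold of 1.29 to 1.51. Pre-B identity was checked by H3K27ac within 1 kb of a transcription start site (TSS) in both 2 h libraries, which 42.4% of 21853 protein-coding genes showed. It was present at 12 of 12 pre-B markers and at 2 of 16 markers of other blood lineages, which were Cd3d and Klf1.

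Most Ikaros binding at 2 h lay in acetylated regions. The 7376 shared regions made up 89.3% of the 8257 regions with Ikaros in both replicates, while Ikaros-only regions made up 7.48%. With 1 Ikaros library the shares were 81.2% and 14.3% (without Ikaros replicate 1) and 80.8% and 14.8% (without replicate 2). A further 3.19% had H3K27ac in 1 replicate. Seen from H3K27ac, the shared regions were 38.3% of the 19245 regions with the mark in both replicates. H3K27ac-only regions were 42.7% of them.

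Whether an acetylated region also carried Ikaros went with the level of acetylation. Regions with H3K27ac in both replicates were put in 10 groups of equal size by the mean percentile rank of their H3K27ac fold. Ikaros was called in both replicates at 5.71% of the lowest group and at 77.5% of the highest. The gradient was steeper away from promoters. Distal regions, more than 1 kb from any TSS, went from 4.36% to 91.3%. Promoter regions went from 11.9% to 70.2%. In the highest group 184 promoter regions had H3K27ac in both replicates and no Ikaros peak, against 15 distal regions. The classes were defined by these calls, so the shares are a description. An Ikaros peak anywhere in the region counted, and wide regions offer more room for one. The strongest H3K27ac peak of a region had a median width of 2492 and 2351 bp in shared regions. In H3K27ac-only regions it was 873 and 787 bp. The part of width in the gradient was not tested.

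**Figure D1:**
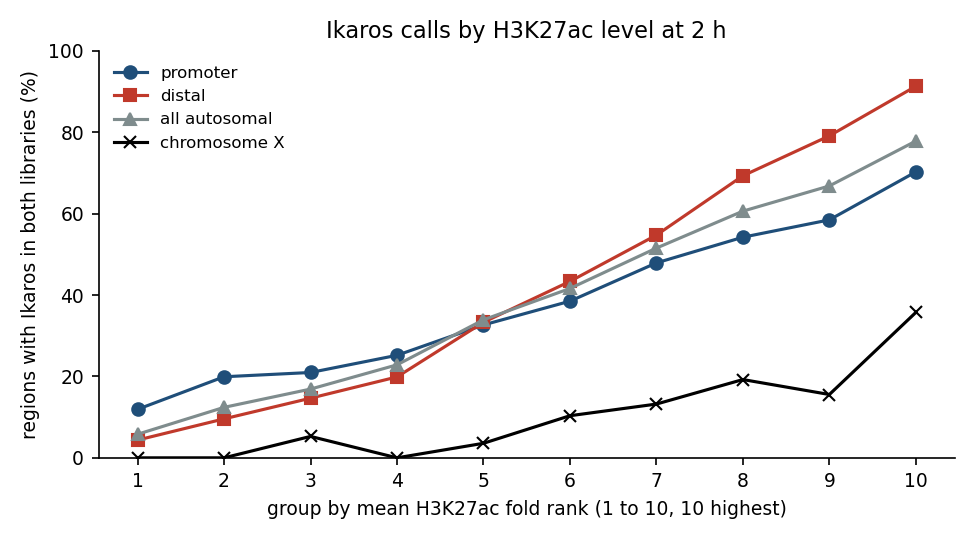
Share of regions with H3K27ac in both 2 h replicates that also had Ikaros in both (%, vertical axis) by group of mean H3K27ac fold rank (horizontal axis, 1 to 10, 10 is highest), for promoter, distal, autosomal and chromosome X regions. The distal line runs from 4.36% to 91.3% and crosses the promoter line, and the chromosome X line stays below the others in every group.

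Chromosome X stood apart. Of its 466 regions with H3K27ac in both replicates, 40 (8.58%) were shared regions, against 39.1% on autosomes. The 19 autosomes ranged from 31.8% on chromosome 12 to 43.8% on chromosome 17. Median H3K27ac fold on X was 6.72 and 6.20 in the 2 replicates, within the autosomal ranges of 6.37 to 7.49 and 5.99 to 7.1. At the autosomal share of each of the 10 groups, X would have held 174 shared regions (37.3%). Only 2 of the 618 Ikaros-only regions were on X. Chromosome X held 0.540% to 1.19% of the peaks in the 8 Ikaros lists of the series, 0.467% to 0.942% in the 8 CHD4 lists and 1.88% to 2.41% in the 8 H3K27ac lists. The ranges of Ikaros and CHD4 did not overlap that of H3K27ac.

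The classes differed in size and place. Median width was 596 bp for Ikaros-only, 1114 bp for H3K27ac-only and 2831 bp for shared regions. A promoter summit, within 1 kb of any TSS, was found in 28.0% of Ikaros-only regions (95% Wilson interval 24.6% to 31.7%). The share was 38.3% of H3K27ac-only regions (37.3% to 39.4%) and 54.8% of shared regions (53.6% to 55.9%). The order of the first 2 classes rested on H3K27ac replicate 2, without which the shares were 30.2% for Ikaros-only and 23.6% for H3K27ac-only. Without H3K27ac replicate 1 they were 28.6% and 30.1%. Over all merged regions it was 32.1%. Median distance to a TSS was 4122 bp, 3023 bp and 645 bp in the same order. These intervals cover counting error over regions, which are not replicates. Ikaros-only summits were intergenic in 46.3% of cases and intronic in 41.9%. For H3K27ac-only summits the shares were 26.5% and 54.0%, and for shared they were 36.0% and 38.7%.

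Fold enrichment was higher where both were present. Median Ikaros fold was 4.16 and 4.80 in the 2 replicates over Ikaros-only regions, and 4.72 and 5.44 over shared regions. Median H3K27ac fold was 4.95 and 4.44 over H3K27ac-only regions, and 10.5 and 10.1 over shared regions. The gap was thus small for Ikaros and over 2-fold for the mark. Each fold is that of the strongest peak of a region, and shared regions held several Ikaros peaks in 29.5% and 23.7% of cases. No comparison at equal peak number was made. Among regions with Ikaros in both replicates, Ikaros-only regions were 16.3% of the lowest of 10 groups by Ikaros fold and 2.18% of the highest. Even so, 18 Ikaros-only regions reached that highest group.

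Summits of Ikaros and H3K27ac often lay apart. In shared regions the leading Ikaros summit lay a median of 306.5 bp from the leading H3K27ac summit in replicate 1 and 295.5 bp in replicate 2 (mean 301 ± 7.78 bp, SD, n = 2 pairs). Crossed pairs of replicates gave 302 and 300 bp. The same target in its 2 replicates lay closer, with a median of 159 bp for Ikaros and 74 bp for H3K27ac. The offset was thus larger than the scatter of either target between replicates. Summits lay within 200 bp of each other in 35.6 ± 1.02% of regions (SD, n = 2), and more than 1 kb apart in 12.1% and 10.4%. The distance was 300 ± 5.66 bp at promoters and 301 ± 10.3 bp at distal regions. In the 3650 regions with 1 peak of each list, it was 238 ± 1.06 bp. Most Ikaros summits were still inside an H3K27ac peak of the same replicate number, 94.9% in replicate 1 and 93.9% in replicate 2.

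**Figure D2:**
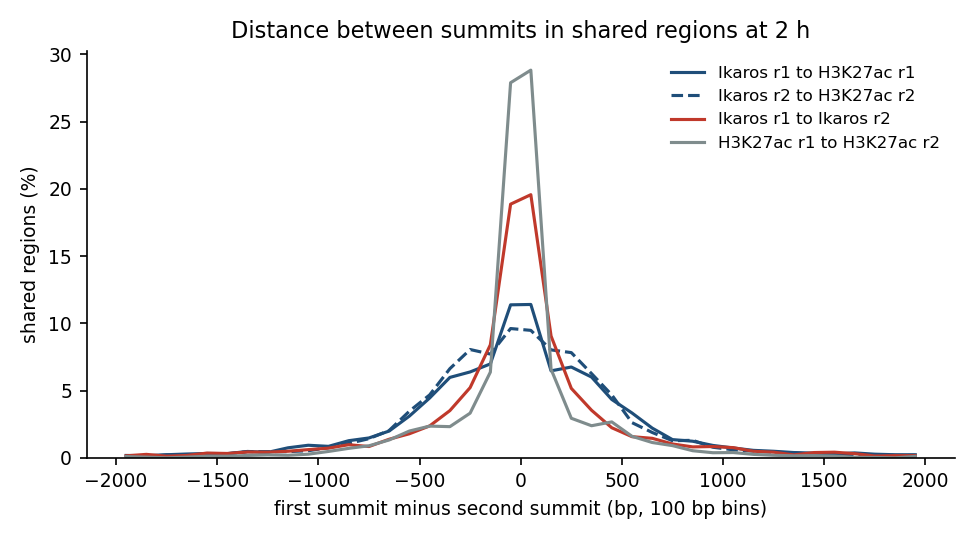
Signed distance between leading summits (bp, horizontal axis, bins of 100 bp) in the 7376 shared regions at 2 h, as percent of regions (vertical axis), for both Ikaros to H3K27ac pairs and for the replicates of each target. All lines are centred near 0, and the Ikaros to H3K27ac lines are broad (median distances 306.5 and 295.5 bp) while the replicate lines are narrow (159 and 74 bp).

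At promoters the summits of Ikaros and H3K27ac took different places around the TSS. The 3560 shared regions with a protein-coding TSS within 1 kb of the leading Ikaros summit were aligned by that TSS. Ikaros summits were most frequent in the 50 bp bin centred 25 bp downstream, with 8.12% and 8.48% of regions in the 2 replicates. H3K27ac summits were scarce there. They formed 1 maximum centred 175 bp downstream (8.17% and 9.07%) and a lower one upstream, centred at −325 bp in replicate 1 (4.69%) and −275 bp in replicate 2 (4.49%). In the bin centred at −75 bp, they were at 0.983% and 1.29% while Ikaros was at 4.94% and 6.21%. Within 150 bp of the TSS lay 36.5% and 39.9% of Ikaros summits, and 18.5% and 18.7% of H3K27ac summits. The regions were chosen by the Ikaros summit, which by itself places Ikaros summits near the TSS. The H3K27ac summit lay downstream of the Ikaros summit of the same region in 52.2% and 54.6% of cases. H3K27ac-only promoters had summits downstream of the TSS in 67.0% and 68.0% of 2678 regions, against 54.6% and 58.1% of the shared promoters. The former were chosen by the H3K27ac summit and the latter by the Ikaros summit, so the 2 sets are not matched. Of the H3K27ac-only summits 32.1% and 29.0% lay within 150 bp of the TSS.

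**Figure D3:**
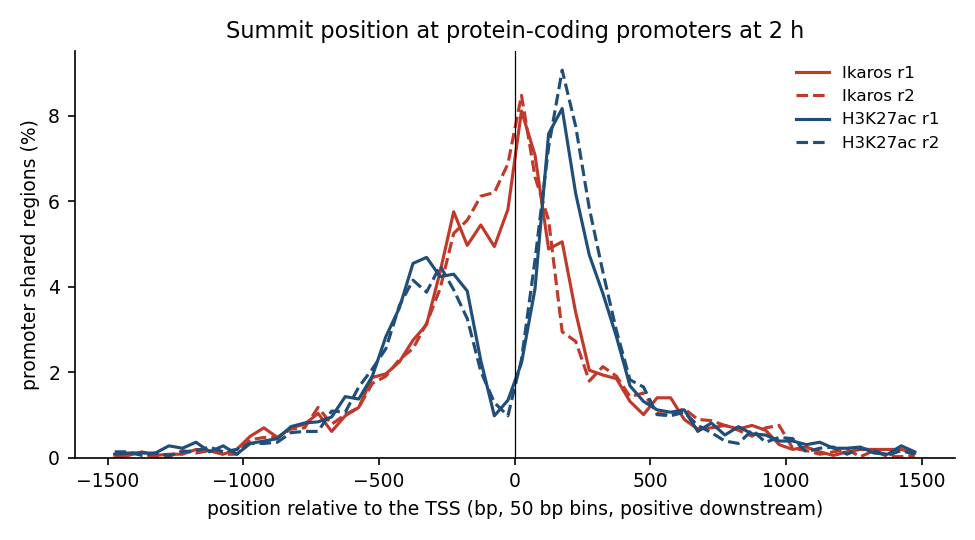
Position of Ikaros and H3K27ac summits relative to the nearest protein-coding TSS (bp, horizontal axis, positive downstream, bins of 50 bp) in 3560 promoter shared regions at 2 h, as percent of regions (vertical axis), with 1 line per replicate. Ikaros peaks at the bin centred on 25 bp, and H3K27ac has its maximum at 175 bp and a lower one upstream.

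Strength of the 2 signals was only weakly related. Across the 7376 shared regions, Spearman's rho of fold was 0.182 for Ikaros replicate 1 against H3K27ac replicate 2, and 0.186 for Ikaros replicate 2 against H3K27ac replicate 1. Pairs with the same number gave 0.261 and 0.257. Lists of the same number may rest on 1 input library, which the sources used here do not state. The crossed pairs were therefore taken as the main ones, and a shared input was not tested. The replicates themselves gave 0.391 for Ikaros and 0.831 for H3K27ac, so Ikaros fold agreed less between its own replicates than H3K27ac fold did. In crossed pairs rho was 0.141 at promoters and 0.232 at distal regions, and 0.121 in the 3650 regions with 1 peak of each list. Same-number pairs gave 0.223, 0.305 and 0.198 in that order. From the lowest to the highest of 10 groups by Ikaros replicate 1, median H3K27ac percentile rank in replicate 2 went from 71.8 to 85.8. The interquartile ranges of those groups overlapped, 55.4 to 84.9 against 72.1 to 94.8. In the top 10% of both mean ranks were 175 regions, while 25 combined the top 10% of Ikaros with the bottom 10% of H3K27ac. These are correlations across sites of the same libraries and carry no p.

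The 10 shared regions with the highest Ikaros ranks were all at promoters, and each had Ikaros and H3K27ac in both 0 h libraries (Ikaros in 49.8% and H3K27ac in 98.5% of all shared regions). At Rac2, a small GTPase of blood cells, Ikaros fold was 11.7 and 14.9 and H3K27ac fold was 19.6 and 21.8. At Dusp2, a phosphatase of MAP kinases, the values were 11.5 and 15.1 for Ikaros and 21.3 and 21.4 for H3K27ac. At Brpf1, a scaffold of histone acetyltransferases, they were 14.3 and 13.1, and 25.04 and 26.7. The others were Ttc9c, Ppp2r1a, Elp5, Def6, Pa2g4, Polr2i and Mcrs1. Their mean H3K27ac percentile ranks ran from 87.6 to 98.7.

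The 10 shared regions highest by H3K27ac had only 3 members within 1 kb of a protein-coding TSS. They were wide, from 3397 bp at Kcnk3 to 16600 bp near Tspoap1. The latter spans Mir142, the gene of a microRNA of blood cells, with H3K27ac folds of 43.6 and 46.2 and Ikaros folds of 7.79 and 5.87. At Elf1, an ETS-family transcription factor, H3K27ac fold was 55.0 and 43.7 and Ikaros fold was 4.68 and 4.73. Traf3ip3 and Arrdc3 were the other promoters. Mean Ikaros percentile ranks of these 10 ranged from 54.5 to 97.9. All 10 carried CHD4 in both 2 h libraries, as did 33.3% of all shared regions, which are narrower in the median, and 8.30% of all merged regions.

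The H3K27ac-only class held highly acetylated regions too. Its first member, chr12:113421181-113429782, covered Ighm and Ighj1 to Ighj4 of the immunoglobulin heavy-chain locus. H3K27ac fold there was 36.4 and 41.4, with no Ikaros peak in either 2 h or 0 h library. The next was in an intron of the noncoding gene Gm16675, nearest Irf2 and 52611 bp from the nearest protein-coding TSS, with folds of 35.9 and 38.2. The remaining 8 were promoters. They included the replication helicase gene Mcm5 (33.5 and 30.1), the histone genes Hist1h2be and Hist1h1e (32.5 and 33.0), and the ribosomal protein genes Rpsa (27.6 and 33.2) and Rps23 (28.3 and 31.9). Each of the 10 had H3K27ac in both 0 h libraries, and 1 had CHD4 in both 2 h libraries. Of all H3K27ac-only regions these were 70.4% and 2.03%.

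None of the first 10 Ikaros-only regions was within 1 kb of a protein-coding TSS. Among them were introns of Snx29, Nr3c2 and Tiam1, the untranslated region of Slc43a2 and the small RNA genes Rnu3b1 and Rn7sk. Ikaros fold ranged from 6.30 to 11.4 in replicate 1 and from 7.62 to 15.4 in replicate 2. At Tiam1, a Rac exchange factor, it was 8.83 and 9.60, and the nearest H3K27ac peak was 32980 bp away. CHD4 was called in both 2 h libraries at 8 of the 10, and Ikaros in both 0 h libraries at 7. Over all 618 Ikaros-only regions these shares were 8.74% (54 regions) and 30.6%. Over all 618 regions the nearest H3K27ac peak lay a median of 12990 bp from the summit, and it was within 1 kb of 73.

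Gene lists were read by the class of region within 1 kb of the TSS. A gene with regions of several classes was counted once, as shared before H3K27ac-only and H3K27ac-only before Ikaros-only. Of 21853 protein-coding genes 21.5% were thus counted as shared, 12.2% as H3K27ac-only and 0.558% as Ikaros-only. Any Ikaros-only region was there for 153 genes, of which 122 were counted in that class. The weakest of the 122 was Gm21738, with Ikaros folds of 1.81 and 1.91. No blacklist of artefact-prone regions was applied here. A fold given for a gene is that of its region, whose edge lies within 1 kb of a TSS while the summit can lie further off. The leading Ikaros summit was over 1 kb from the TSS at 19 of 64 listed shared genes outside the ribosomal list. Among the 9267 genes with H3K27ac at the TSS in both libraries, shared regions were at 50.6% and H3K27ac-only regions at 28.8%. Lists of B-lineage genes were mostly shared. The lists share some genes and regions, and no list was tested against other genes.

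Of 12 genes of pre-B cell receptor signalling, 10 had a shared region at the TSS. Cd79a and Cd79b encode the signalling chains of the receptor. At Cd79a Ikaros fold was 7.64 and 12.1 and H3K27ac fold was 29.4 and 31.7, with summits 629 and 599 bp apart. At Cd79b the folds were 8.87 and 11.8, and 21.3 and 16.4, in a region whose leading Ikaros and H3K27ac summits lay 5982 and 6397 bp from the TSS. Igll1 and Vpreb1, the surrogate light chain genes, share 1 region, with Ikaros folds of 5.86 and 13.4 and H3K27ac folds of 19.1 and 19.6. Syk, the kinase next in line, had 6.07 and 14.4, and 15.4 and 18.02, with summits 1801 and 1579 bp from the TSS. Plcg2 and Pik3cd were also shared. Btk had Ikaros in 1 replicate only, with fold 4.16. The 2 Ikaros replicates differed by over 2-fold at Igll1 and Syk, so single values there are uncertain.

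B-lineage transcription factors were shared at 13 of 18 TSSs. Pax5, which fixes B-cell identity, had Ikaros folds of 5.85 and 11.5 and H3K27ac folds of 19.3 and 27.4, with the leading Ikaros summit 2148 bp from the TSS. Spi1, the gene of PU.1, had 5.83 and 6.401, and 27.01 and 24.03, with the leading Ikaros summit 3690 bp from the TSS. Lef1, a factor of early lymphoid cells, had 8.71 and 11.8, and 6.16 and 8.19, with that summit 3176 bp away. Tcf3 was H3K27ac-only, with folds of 24.4 and 13.0. Ikzf3 and Spib had no region at a TSS. Ikzf1 itself had H3K27ac in 1 replicate only, with fold 3.77. One factor, Irf4, was Ikaros-only. It drives light-chain rearrangement and the plasma cell fate. Ikaros fold at its TSS was 3.38 and 2.94 at 2 h. H3K27ac was called there in both 0 h libraries, with folds of 9.69 and 7.19, and in none of the 6 later ones.

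The IL-7 receptor pathway was mixed, with 6 of 10 genes shared, 3 H3K27ac-only and 1 Ikaros-only. Il7r itself had Ikaros folds of 3.85 and 6.20 and H3K27ac folds of 23.6 and 21.7. Il2rg, Stat5a and Stat5b were H3K27ac-only at a TSS. Stat5b also had an Ikaros-only region 573 bp from a TSS, with folds of 4.94 and 4.29. H3K27ac was called there in 0 h replicate 1, with fold 3.14. It was also called in both 30 min libraries (10.5 and 4.28) and both 1 h libraries (3.74 and 4.94). Some of those peaks also cover the neighbouring H3K27ac-only region. Cish, a STAT5-induced inhibitor of cytokine signalling, was Ikaros-only. Its summit lay 38 bp from the TSS, with folds of 6.75 and 7.04 at 2 h and of 8.40 and 10.6 at 0 h. None of the 8 H3K27ac lists had a peak there. The nearest 2 h H3K27ac peak was 16210 bp away.

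Of 20 genes the study names as fast repressed, 14 were shared, 2 were H3K27ac-only (Dntt and Ramp1) and 3 had no region at a TSS (Ccnd1, Hs3st2 and Espnl). The study chose these genes with other data from these cells, so the list is not independent of Ikaros. Myc had Ikaros folds of 5.97 and 8.32 and H3K27ac folds of 9.14 and 8.82, with summits 248 and 32 bp apart. Ccnd2, which encodes a D-type cyclin, had 4.54 and 7.04, and 6.10 and 5.88. It also had an Ikaros-only region 2833 bp from a TSS, with Ikaros folds of 4.20 and 2.83. H3K27ac was called there in both 0 h libraries, with folds of 4.37 and 16.2, and in 1 of the 4 libraries at 30 min and 1 h. In 0 h replicate 2 the fold at the shared Ccnd2 region was also 16.2, so 1 peak may cover both regions. The deposited lists give no level below the threshold, so such a loss of a call was not measured as a change in signal.

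Cell cycle genes were shared at 12 of 17 TSSs, among them Cdk1 (Ikaros folds 7.79 and 12.2, H3K27ac folds 13.8 and 18.5). Cdk4, Ccne1 and Cdkn2a were H3K27ac-only. Cdk4, with H3K27ac folds of 19.5 and 23.1, was the most acetylated of these 3. Of 13 NuRD subunits, 8 were shared, including Chd4 (5.40 and 7.36, and 12.9 and 16.8, with summits 3476 and 3332 bp from the TSS), and Mta1, Rbbp7 and Gatad2b were H3K27ac-only. Adhesion receptors were shared at 5 of 12. The 83 cytosolic ribosomal protein genes had H3K27ac-only as the more frequent class. They were H3K27ac-only at 37 and shared at 27, that is 44.6% and 32.5%, and 80 had H3K27ac at the TSS in both libraries. Of the markers of other lineages, 1 of 16 (Cd3d) was shared and 13 had no region at a TSS.

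Core words were counted in the 101 bp around each summit, on both strands by their reverse complements. Density was 3.25 ± 0.0725 words per 100 bp at Ikaros summits of Ikaros-only regions (SD, n = 2 replicates) and 3.18 ± 0.141 in shared regions. The difference lay within the SD of the shared class and was not tested. At distal regions density was 3.23 ± 0.0456 in Ikaros-only and 2.96 ± 0.116 in shared regions, and at promoters 3.31 ± 0.142 and 3.36 ± 0.161. Flanks 400 to 500 bp away held 2.39 and 2.26. At H3K27ac summits of H3K27ac-only regions density was 2.22 ± 0.0344, with 2.07 in the flanks. Control words made of the same bases in reverse order (AAGG with its complement CCTT, and AGGG with its complement CCCT) gave 2.67 and 2.49 at Ikaros summits of the first 2 classes, and 2.29 and 2.17 in their flanks. At least 1 core word was found in 94.0% and 94.2% of these windows, against 87.6% of windows of the same length at the leading summits of all 37161 regions.

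**Figure D4:**
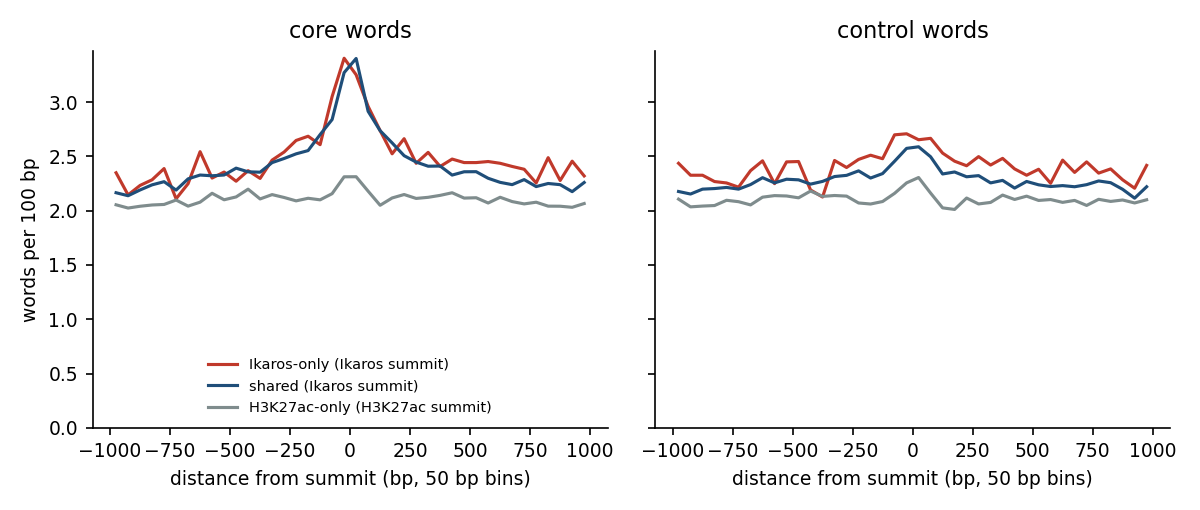
Core words (left) and control words (right) per 100 bp (vertical axis) by distance from the leading summit (bp, horizontal axis, bins of 50 bp) for the 3 classes. Core words rise at Ikaros summits of both Ikaros-only and shared regions well above control words, while H3K27ac-only regions show a small rise of about the same height for both kinds of word.

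Words of other factors were also counted, and were chosen after their values were seen. The classes differ in promoter share, so each is also given for promoter and distal regions, with no test. TGTGGT or its complement ACCACA, the word of RUNX factors, was in 15.5 ± 1.49% of windows at Ikaros-only summits (SD, n = 2) and 8.81 ± 1.87% at shared summits. It was in 8.57% of windows over all regions. Among distal regions the shares were 18.7 ± 2.54% and 11.9 ± 3.24%, and at promoters 7.23 ± 1.23% and 6.21 ± 0.735%. CCGGAA or TTCCGG, a word of ETS factors that contains a core word, went the other way. It was in 3.88 ± 0.687% of Ikaros-only windows and 7.55 ± 1.496% of shared windows, against 3.23% over all regions. At promoters the shares were 5.78% in both Ikaros-only replicates and 10.6 ± 1.94% in shared regions, and at distal regions 3.15 ± 0.953% and 3.91 ± 0.954%. The palindrome CAGCTG was in 11.4 ± 1.26% and 8.79 ± 0.546%, against 6.64%. Its shares were 12.8 ± 1.91% and 11.2 ± 1.46% at distal regions and 7.80 ± 0.409% and 6.78 ± 0.210% at promoters. Of these words, the distal ETS and CAGCTG shares and the promoter RUNX shares differed by no more than the larger SD. A word match is a description and not a binding site. Repeat-masked bases made up 13.3% of the bases around Ikaros-only summits, 9.62% at shared and 15.6% at H3K27ac-only.

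Libraries that did not define the classes were read at the summits of each class. CHD4 was called at the leading Ikaros summit, within a 200 bp window, in 7.44% to 35.6% of Ikaros-only regions over the 8 CHD4 libraries. In shared regions the range was 16.5% to 55.5%. H3K27ac-only regions had CHD4 at the H3K27ac summit in 1.07% to 8.48%. At the leading summits of all 37161 merged regions the range was 4.33% to 18.3%. In the 2 h libraries it was 7.77% and 18.3%, against 10.5% and 35.6% of Ikaros-only regions. Shared regions exceeded Ikaros-only in 8 of 8 libraries, by 16.1 ± 4.34 percentage points (SD, n = 8). The exact two-sided sign-flip permutation p was 0.00781, the smallest that 8 libraries allow, and the adjusted p over 10 tests was 0.0582. The difference thus did not pass the adjustment. Limiting CHD4 peaks to those with −log10 q of 3 or more kept 343 to 1482 peaks per list. On the same regions, an alternative added after the data were seen, the difference was then 1.87 ± 2.05 points (SD, n = 8), higher in 7 of 8 libraries, and in CHD4 2 h replicate 1 it turned to −0.715 points. With that limit on every list, which also redraws the classes, it was 1.14 points.

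The gap was wider away from promoters. At distal sites CHD4 shares of shared regions were 26.6% and 52.4% at 0 h and 34.2% and 70.1% at 2 h. Those of distal Ikaros-only regions were 7.19% and 22.7%, then 11.2% and 37.8%. At promoters the shares were 8.14% and 22.4%, then 22.2% and 43.4%, in shared regions, and 8.09% and 16.2%, then 8.67% and 30.1%, in Ikaros-only regions. The mean difference was 27.3 ± 4.89 points at distal and 8.15 ± 6.13 points at promoter regions (SD, n = 8 libraries), where the lowest library had 0.0468 points. Distal exceeded promoter in 8 of 8 libraries, by 19.2 ± 5.33 points. This contrast was added after the data were seen (exact sign-flip permutation p = 0.00781, the smallest possible, and adjusted p = 0.0430 over the 10 tests and this one). In that family of 11 the CHD4 difference over all regions, with the same p, also has an adjusted p of 0.0430, so the added test itself moves both past the threshold and neither is read as a call. With CHD4 peaks of −log10 q of 3 or more the contrast was 5.90 ± 2.38 points, positive in 8 of 8 libraries, and the promoter gap was −0.683 ± 1.53 points, positive in 2 of 8. Shared regions also rank higher by Ikaros fold. Within 5 groups by 2 h Ikaros rank the CHD4 difference was 4.00 ± 3.07 points in the lowest group and 17.9 ± 7.32 in the highest, and was positive in 8 of 8 libraries in each.

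Earlier Ikaros libraries gave the same order. Before 2 h, an Ikaros peak was found at 33.8% and 38.7% of Ikaros-only summits at 0 h, 39.97% and 22.7% at 30 min and 63.8% and 70.4% at 1 h. Shared summits had 45.7% and 53.1%, 60.4% and 38.5%, and 77.0% and 81.3%. Over all merged regions the shares were 13.2% and 16.1%, 16.3% and 9.72%, and 23.1% and 26.8%. The difference between the classes was 14.5 ± 3.42 points, positive in 6 of 6 libraries, and with the classes drawn without Ikaros 2 h replicate 1 or 2 it was 22.6 or 26.0 points. Where a peak was present, its fold ranked 8.85 ± 3.31 percentile points higher in shared regions. Each p was 0.0313, the smallest an exact sign-flip test of 6 libraries allows, and each adjusted p was 0.0582. Shared regions also had the higher Ikaros fold at 2 h, and no comparison at matched fold was made. At 0 h, before 4-OHT was added, both libraries already had an Ikaros peak in 189 (30.6%) of the Ikaros-only regions and 3670 (49.8%) of the shared regions.

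H3K27ac was present early at shared regions. At the leading H3K27ac summit, 97.5% to 99.7% of shared regions had a peak in each of the 6 earlier libraries, against 69.0% to 84.9% of H3K27ac-only regions and 49.1% to 62.7% of all merged regions. The difference between the classes was 23.1 ± 5.13 points and the fold rank was 22.2 ± 1.08 percentile points higher, both in 6 of 6 libraries (exact sign-flip p = 0.0313, adjusted p = 0.0582 each). With the classes drawn without H3K27ac 2 h replicate 1 or 2 the first of these was 37.1 or 55.0 points. At 2 h the shared regions already had the higher H3K27ac fold (medians 10.5 and 10.1 against 4.95 and 4.44). No comparison at matched H3K27ac level was made, so these p-values are not separate support for a difference between the classes. Only 2 of the 7376 shared regions had no H3K27ac peak in any earlier library, compared with 413 (5.02%) of the H3K27ac-only regions.

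**Figure D5:**
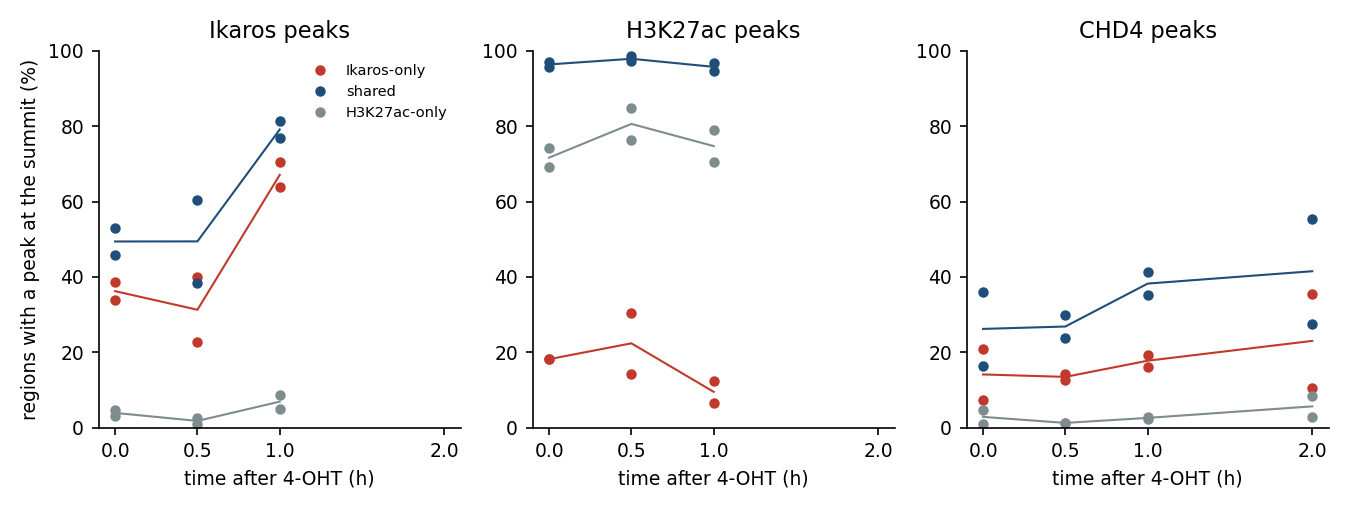
Share of regions with a peak in the 200 bp at the leading summit (%, vertical axis) by time after 4-OHT (h, horizontal axis) in Ikaros, H3K27ac and CHD4 libraries, with 1 point per library and lines through the means. Windows are at the Ikaros summit for Ikaros-only and shared regions and at the H3K27ac summit for H3K27ac-only regions. The 2 h Ikaros and H3K27ac lists are left out because they define the classes, and shared lies above Ikaros-only in every library.

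Ikaros-only regions were not all unacetylated before. Over the whole region, H3K27ac was called at 25.9% and 22.7% at 0 h, 38.2% and 19.6% at 30 min, and 17.2% and 10.2% at 1 h. By contrast 52.7% to 66.1% of all merged regions had a call in these libraries. The trend with time did not pass (rho = −0.72, adjusted p = 0.254 from an exact permutation p of 0.178). Pearson's r was −0.50, with an exact permutation p of 0.356 before and after adjustment. Without the 2 libraries at 0 h, r was −0.73. In both 0 h libraries 102 regions (16.5%) had the mark, with median folds of 4.59 and 4.37, and 58 of them also had Ikaros in both 0 h libraries. None of the 6 earlier libraries had a call at 316 regions (51.1%). CHD4 was called in both 2 h libraries at 5 of the 102 (4.90%) and at 33 of the 316 (10.4%), against 8.74% of all 618. The Irf4 and Ccnd2 regions above belong to the 102. So does the promoter of Irgc1, with 0 h folds of 12.1 and 8.75, which was chosen after its values were seen.

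Earlier Ikaros lists each covered 1.84% to 13.5% of H3K27ac-only regions, against 12.1% to 31.0% of all merged regions. At least 1 of the 6 earlier lists had a peak in 1941 (23.6%). Over 0 h, 30 min and 1 h the trend gave rho = 0.48, with exact permutation p of 0.400 and 0.444 after adjustment, and r = 0.52, with exact p of 0.289 and 0.356. Without the 2 libraries at 0 h, r was 0.89, and without either 1 h library rho was 0.105. An Ikaros peak was present in both 0 h libraries at 283 (3.44%). The nearest 2 h Ikaros peak lay a median of 13467 bp from the H3K27ac summit.

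CHD4 shares varied widely between replicates, and no trend with time passed the test in either class. The CHD4 lists held 2488 and 6000 peaks at 0 h and 4081 and 3369 at 30 min. They held 5446 and 5027 at 1 h and 5523 and 9593 at 2 h. In both classes the shortest list gave the lowest share and the longest list the highest. The shares were not adjusted for list length. In shared regions the CHD4 shares were 16.5% and 36.0% at 0 h, 29.8% and 23.9% at 30 min, 41.4% and 35.1% at 1 h, and 27.6% and 55.5% at 2 h. The trend had rho = 0.44, with exact permutation p of 0.300 and 0.375 after adjustment, and r = 0.56, with exact p of 0.146 and 0.356. In Ikaros-only regions it had rho = 0.24, with exact permutation p of 0.586 before and after adjustment, and r = 0.45, with exact p of 0.275 and 0.356. The gap between the classes was 9.06 and 15.1 points at 0 h and 17.1 and 19.9 points at 2 h. Its trend had rho = 0.78, with exact permutation p of 0.0349 and 0.0582 after adjustment, and r = 0.65, with exact p of 0.0841 and 0.356, and did not pass. With −log10 q of at least 3 in every list its rho was 0.0976 (exact permutation p = 0.861). Without the 2 libraries at 2 h, r was 0.59, 0.33 and 0.79 for these trends.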

How the data were processed

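Bowtie2 2.4.2, Picard 2.23.7 and MACS2 2.2.7.1 are named in the submitters' processing notes. Read pairs were mapped by the authors to mm10, duplicates were marked and peaks were called, narrow for Ikaros and H3K27ac and broad for CHD4. The settings for 30 min and the input paired with each library are not given in the sources used here. The deposited lists hold, per peak, a fold (a ratio to local background), the −log10 p, the −log10 q and, in narrow lists, the summit offset. They hold no read counts, so no count model was run, and the 8 inputs were not used here.

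Groups came from the library titles. Peaks on chromosomes 1 to 19, X and Y were used. The leading summit of a target is that of the peak whose fold has the higher percentile rank within its list. Genes came from GENCODE M21, sequence from RefSeq GRCm38.p6. Background coverage was recovered from fold and −log10 p for peaks with −log10 p under 40, as the most frequent background value. Pileups at that value were whole fragments within 0.1 for at least 99.99% of peaks, after a scale of 0.894 and 0.816 in the H3K27ac lists. The CHD4 depth was not recovered. Coverage intervals cover counting error only. On simulated lists 13 of 13 quantities were recovered within 2%. They covered region classes, summit distance, rank relation, shares, the sign-flip p, the number of trend permutations and background coverage. Gene, word and chromosome counts were not part of that check.

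Each of 10 measures gave 1 value per library. Differences used exact two-sided sign-flip permutation tests, trends exact permutation tests of Spearman's rho and of Pearson's r. P-values were adjusted by Benjamini-Hochberg across the 10, and for r across the 5 trends. With 2 libraries against 2, an exact p cannot go below 0.333. Named regions were the 10 with the highest mean fold rank per class, and in shared regions the 10 by each target, with genes by nearest protein-coding TSS, except that Ikaros-only regions carry the name of the gene they lie in. 1 gene of the fixed lists is not reported here. Members, lists and tests were chosen with earlier results of these data known. Python 3.11.15, numpy 2.4.6, pandas 2.3.3, scipy 1.17.1 and matplotlib 3.10.9 were used.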

Additional observations from a re-analysis of the deposited data

Results flagged for a closer look

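The excess of CHD4 calls in shared over Ikaros-only regions was compared between distal and promoter sites by a test added after the data were seen, which is not read as a call. The excess was 19.2 percentage points larger at distal sites, in 8 of 8 libraries (exact sign-flip permutation p = 0.00781, the smallest 8 libraries allow, and adjusted p = 0.0430 over 11 tests). The CHD4 difference over all regions has the same p and would reach the same 0.0430 in that family, against 0.0582 over the 10 planned tests. Distal Ikaros-only regions numbered 445 and promoter ones 173, and CHD4 was called at 7.19% to 37.8% and 8.09% to 30.1% of them in the libraries of 0 h and 2 h. In shared regions the shares were 26.6% to 70.1% at distal sites and 8.14% to 43.4% at promoters. With CHD4 peaks of −log10 q of at least 3 the contrast was 5.90 points.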

How the results depend on the processing

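Of 267 alternative values, 223 were counted as the same, 42 as moved and 2 as reversed. A test value was the same if it kept its direction and its adjusted p stayed on its side of 0.05. All 10 tests had a main adjusted p above 0.05, so this label says nothing of effect size. The CHD4 difference of 1.14 points and its trend rho of 0.0976 counted as the same. Region counts were judged by a limit on fold change, promoter shares by their Wilson intervals and other values by the replicate spread. None of the 10 tests passed an adjusted p of 0.05 under any alternative. With 1 of its own libraries left out, a sign-flip test of 6 libraries could not pass, since its smallest p then exceeds 0.05. With −log10 q of at least 3, the promoter share of H3K27ac-only regions was 45.2%, rho of Ikaros and H3K27ac fold 0.155 and core word density in Ikaros-only regions 3.38. With fold of at least 3 these were 42.3%, 0.172 and 3.34. Equal list lengths gave a share of 41.7%. An overlap of at least 50% gave a distance of 309 bp, a shared promoter share of 53.1% and rho of 0.117. The nearest pair of summits lay 251.5 bp apart. In regions with 1 peak of each list, chosen after the data were seen, the distance was 238 bp and rho 0.121. Promoter shares of Ikaros-only, H3K27ac-only and shared regions were 44.3%, 49.9% and 65.7% within 3 kb, and 21.04%, 32.6% and 48.3% with protein-coding TSSs. The rank correlation rho was 0.245 by −log10 p, 0.141 at promoter regions, 0.232 at distal regions and 0.259 in replicates with the same number, an alternative added after the data were seen. Over 100 bp either side, word densities were 3.09 and 3.02. The cause of these moves was not tested.

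Leaving out 1 library at a time gave 749 to 1684 Ikaros-only regions (1684 without Ikaros replicate 1, 1620 without replicate 2), 9721 to 21668 H3K27ac-only regions (13420 without H3K27ac replicate 1, 21668 without replicate 2) and 7557 to 9542 shared regions. Summit distance was 282 to 296 bp and rho 0.186 to 0.227. Promoter shares were 25.8% to 30.2%, 23.6% to 42.0% and 53.9% to 55.3%, and word densities 2.88 to 3.23 and 3.02 to 3.20. The difference in earlier H3K27ac calls reached 55.0 points without H3K27ac 2 h replicate 2 and 37.1 without replicate 1, and that in earlier Ikaros calls 26.0 without Ikaros 2 h replicate 2 and 22.6 without replicate 1. The CHD4 trend in Ikaros-only regions had rho = −0.0367 without CHD4 0 h replicate 1 or without CHD4 2 h replicate 2 (range −0.0367 to 0.53). The trend coefficient rho ranged from 0.105 (without Ikaros 1 h replicate 1 or 2) to 0.632 for Ikaros in H3K27ac-only, 0.239 to 0.679 for CHD4 in shared, 0.537 (without Ikaros 2 h replicate 1) to 0.844 for the CHD4 difference and −0.949 to −0.527 for H3K27ac in Ikaros-only regions. With −log10 q of at least 3 that of the CHD4 difference was 0.0976.

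With the replicate number as a block, the exact permutation p of the 5 trends, in the order H3K27ac in Ikaros-only, Ikaros in H3K27ac-only, CHD4 in shared, CHD4 in Ikaros-only and the CHD4 difference, was 0.167, 0.500, 0.326, 0.549 and 0.0556, with adjusted p of 0.238, 0.549, 0.408, 0.549 and 0.0926. Spearman's rho was unchanged at −0.72, 0.48, 0.44, 0.24 and 0.78. Replicate 1 was the higher at 3 of 3, 1 of 3, 2 of 4, 2 of 4 and 2 of 4 times, and nothing in the labels ties the numbers to a shared culture or day.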
